A study of Mus musculus with 16 samples.

Results

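The genes described here mark the last stretch of the nephron and the collecting duct of the mouse kidney. They were taken by gene symbol from a list of 36, and all 36 were found, each once, among the 32989 genes of the kidney and liver tables. By the segment or cell they are best known from, 9 belong to the thick ascending limb, 10 to the distal convoluted tubule, 10 to the principal cell and 7 to the intercalated cell. Male wild-type C57BL/6J mice were kept for 85 weeks, to an age of 97 weeks, either under a regular light-dark cycle (LD) or under a light-dark cycle that was advanced by 8 h once every 4 days (ADV). Liver and kidney RNA of 4 LD-conditioned mice, L63, L65, L86 and L104, and of 4 ADV-conditioned mice, A75, A91, A94 and A115, was sequenced, which gave 16 libraries. The organs were collected early in the dark phase that followed the last light onset, and no genotype or drug differed between the conditions.

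Along the nephron the thick ascending limb takes up salt without water and secretes uromodulin. The distal convoluted tubule then reabsorbs sodium chloride through a thiazide-sensitive transporter that is set by the WNK kinases, and it reabsorbs magnesium. In the collecting duct the principal cell takes up sodium through the epithelial sodium channel under aldosterone and water under vasopressin, while the intercalated cell moves acid and base. Sodium transport in these segments is known to follow the time of day. Because whole organs were sequenced, fewer cells of a segment and less RNA per cell cannot be told apart in any value below.

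The claudins seal the junctions between tubule cells and set which ions pass. The 2 claudins of the principal cell, Cldn4 and Cldn8, differ in GC share, and A115 was the lowest kidney for the one and the highest for the other. Since the kidney libraries differed with the GC share of the transcripts, the first 120 coding bases of both are shown, with every G and C in capitals (GENCODE vM21, GRCm38).
Cldn4: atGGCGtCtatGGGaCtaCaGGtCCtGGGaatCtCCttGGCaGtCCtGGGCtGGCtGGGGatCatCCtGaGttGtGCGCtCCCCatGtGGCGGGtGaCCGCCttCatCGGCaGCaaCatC
Cldn8: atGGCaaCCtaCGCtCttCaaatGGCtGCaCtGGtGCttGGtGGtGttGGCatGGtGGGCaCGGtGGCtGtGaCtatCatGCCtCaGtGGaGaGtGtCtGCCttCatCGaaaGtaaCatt
G and C made up 60.8% of this stretch in Cldn4 and 52.5% in Cldn8, and over the whole transcript 56.8% and 40.6%. Cldn4 lies at chr5:134945123-134946934 and Cldn8 at chr16:88560826-88563183, both on the minus strand (mm10).

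The kidney libraries held between 15688495 and 18043306 fragments on genes, and the liver libraries between 21092501 and 24285055. The kidney library of A115 stood apart from the other 7. Mitochondrial transcripts took 33.8% of its gene fragments, against 15.7% to 18.02% in the LD kidneys and 9.43% to 13.1% in the other ADV kidneys, and its mean correlation with the other kidneys over genes was 0.858, where the other 7 lay between 0.932 and 0.964. The liver of the same mouse had a mitochondrial share of 8.09%, within the range of the other livers. Libraries were sequenced by 2 providers on 2 instruments and the labels do not say which library went where. A sequencing batch can thus not be told apart from the mice, the conditions or the organs. The kidney levels are therefore given by mouse for most genes. Some are given as mean and SD, with A115 among the ADV kidneys. The tests are given first with all 8 kidneys and then without A115.

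In the kidney all 36 genes were expressed above the minimum of 0.5 RPM, the reads scaled to library size. Between the 4 LD and 4 ADV kidneys none of the 36 genes passed an adjusted p of 0.05 by limma, and 0% of the 14452 genes tested did. At an unadjusted p under 0.05 there was 1 gene, Wnk1, which was lower in the ADV condition, against 3.1% of all genes. The log2 difference was negative in 24 genes and positive in 12, with a median of −0.13, while the median of all genes was −0.02. By segment, the medians were −0.06 in the thick ascending limb, −0.33 in the distal convoluted tubule, −0.08 in the principal cell and −0.10 in the intercalated cell. Without A115 the same medians were 0.08, 0.03, 0.35 and 0.03, while that of all genes was 0.20. With median ratio scaling as well, which sets each library by the median ratio of its genes to their geometric mean over the libraries and under which the median of all genes was 0.02, they were −0.11, −0.16, 0.16 and −0.17, so that without A115 the sign of each but that of the principal cell depended on the scaling.

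**Figure D1:**
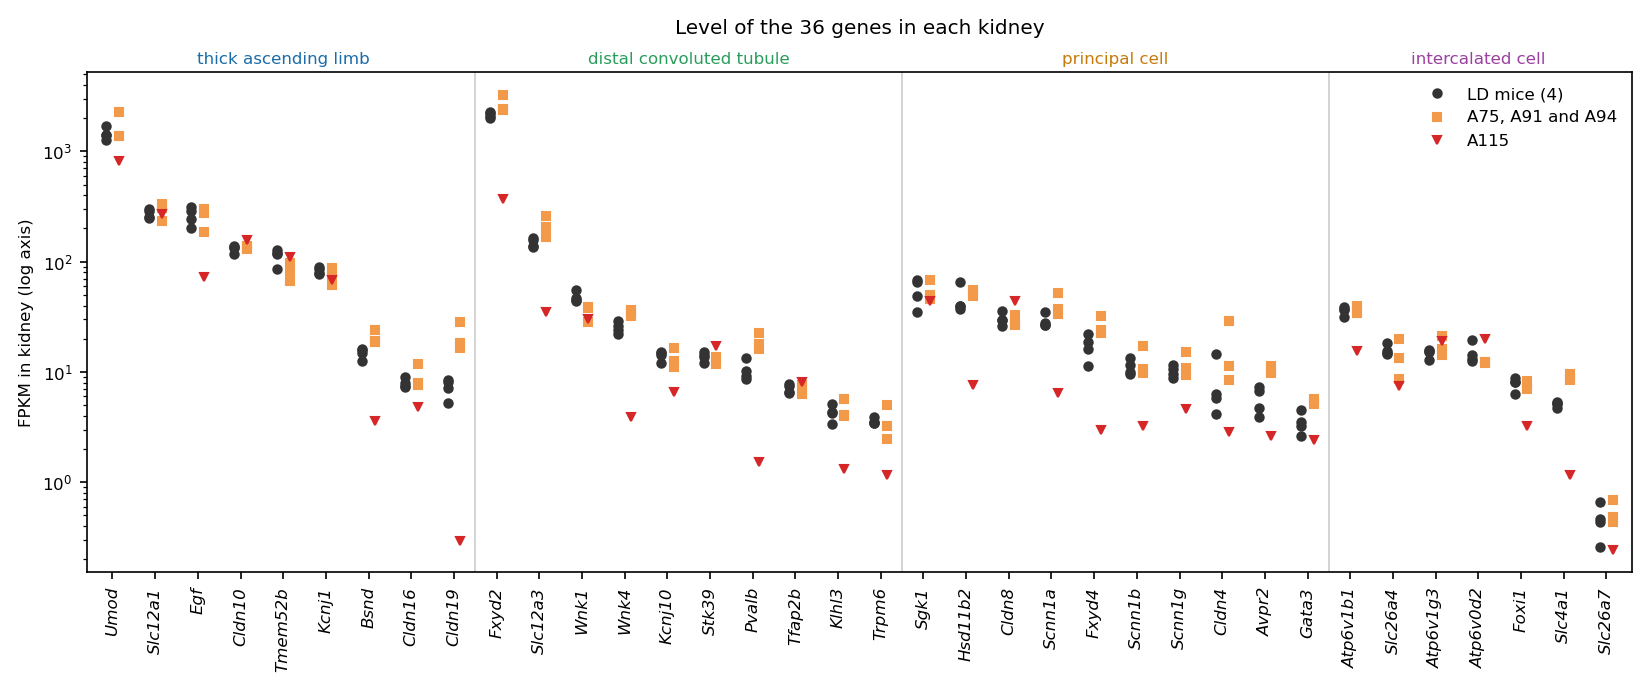
FPKM (fragment counts divided by exon length and by library total, log axis) of the 36 genes in each of the 8 kidneys, grouped by segment and ordered by the LD mean. Circles are the 4 LD kidneys, squares A75, A91 and A94, and the triangle A115, which was the lowest of the 8 in 25 genes and the highest in 5.

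In the thick ascending limb the mean level of the apical salt transporter was close between the conditions, while several other genes varied widely between the ADV kidneys. Slc12a1, the apical sodium-potassium-chloride transporter of this segment (chr2:125152600-125230002), was at 290, 257, 298 and 250 FPKM in L63, L65, L86 and L104 and at 235, 331, 306 and 273 FPKM in A75, A91, A94 and A115. The groups overlapped, and A115 lay inside the LD range. Umod, which encodes uromodulin (chr7:119462708-119479262), was at 1405, 1397, 1702 and 1265 FPKM in the LD kidneys and at 2282, 1392, 1394 and 818 FPKM in A75, A91, A94 and A115. The highest and the lowest of the 8 values were both from ADV kidneys.

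Kcnj1, the potassium channel that recycles potassium into the lumen, had the second smallest p of this segment. Its levels were 86.2, 78.3, 90.1 and 77.0 FPKM in the LD kidneys and 87.0, 73.6, 61.1 and 68.4 FPKM in the ADV kidneys, a log2 difference of −0.20 (SE 0.15, adjusted p = 1.0 by limma). Tmem52b, a gene enriched in this segment whose role is little known, was at 127, 118, 119 and 85.6 FPKM in the LD kidneys and at 98.2, 82.0, 66.3 and 111 FPKM in the ADV kidneys. Its log2 difference was −0.34 (SE 0.21, adjusted p = 1.0 by limma), and the ranges overlapped for both genes.

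Cldn19, a claudin needed for magnesium and calcium uptake between the cells, varied most. It was at 5.26, 7.14, 8.42 and 8.06 FPKM in the LD kidneys, at 28.7, 16.4 and 18.2 FPKM in A75, A91 and A94, and at 0.293 FPKM in A115. So 3 ADV kidneys lay above every LD kidney and the fourth lay below all of them, and the mean log2 difference was 0.08 (SE 1.25). Its partner Cldn16 was at 7.91 ± 0.804 FPKM (SD, n = 4) in the LD condition and 8.04 ± 2.83 FPKM (n = 4) in the ADV condition, and Cldn10, which forms sodium-permeable junctions, at 131 ± 9.91 and 141 ± 12.4 FPKM. Bsnd, which encodes barttin, an accessory protein of the basolateral membrane, was at 14.9 ± 1.61 and 16.3 ± 8.81 FPKM. It showed the same split, with 23.9, 19.0 and 18.8 FPKM in A75, A91 and A94, 3.60 FPKM in A115 and 12.6 to 16.1 FPKM in the LD kidneys. Egf, the precursor of epidermal growth factor, was at 262 ± 48.6 FPKM in the LD condition and 209 ± 103.6 FPKM in the ADV condition, with 72.9 FPKM in A115.

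In the distal convoluted tubule the kinase gene Wnk1 was the only one of the 36 genes whose LD and ADV kidneys did not overlap. Its row covers the long transcript of a kinase that acts upstream of the sodium chloride transporter (chr6:119923969-120038655, minus strand), and the shorter kidney-specific form cannot be told apart from it. The levels were 55.7, 46.8, 44.4 and 44.8 FPKM in the LD kidneys and 38.9, 37.8, 28.4 and 30.1 FPKM in the ADV kidneys. The mean was 47.9 ± 5.30 FPKM in the LD condition and 33.8 ± 5.33 FPKM in the ADV condition (SD, n = 4 each). The log2 difference was −0.51 (SE 0.16), with an unadjusted p = 0.012 and an adjusted p = 1.0 by limma. A two-sided exact permutation test gave p = 0.029, the smallest that 4 against 4 mice allow. Of all genes tested, 1.83% had every ADV kidney below every LD kidney and 0.962% had every ADV kidney above.

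The transporter itself, Slc12a3 (chr8:94329208-94366222), was split by mouse. It was at 138, 156, 163 and 137 FPKM in the LD kidneys and at 260, 204 and 167 FPKM in A75, A91 and A94, which lay above them, while A115 was at 35.2 FPKM. Wnk4, the second WNK kinase of this segment, was at 22.1 to 29.0 FPKM in the LD kidneys, at 36.4, 35.4 and 32.0 FPKM in A75, A91 and A94 and at 3.87 FPKM in A115. Stk39, which encodes the SPAK kinase between WNK and the transporter, was at 13.8 ± 1.29 FPKM in the LD condition and 14.0 ± 2.34 FPKM in the ADV condition, and here A115 was the highest kidney with 17.3 FPKM. Klhl3, the adaptor that marks WNK kinases for degradation, was at 4.26 ± 0.727 and 3.77 ± 1.81 FPKM.

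Pvalb, a calcium-binding protein of the early part of the segment (chr15:78191117-78206351), was at 10.3, 13.5, 8.58 and 9.19 FPKM in the LD kidneys, at 22.8, 17.9 and 16.1 FPKM in A75, A91 and A94, and at 1.54 FPKM in A115. The value of A115 rests on 26.5 fragments, and those of the other kidneys on 132.5 to 368.5. Kcnj10, a basolateral potassium channel, was at 15.3, 14.3, 14.9 and 12.01 FPKM in the LD kidneys and at 16.3, 12.6, 11.1 and 6.58 FPKM in the ADV kidneys, a log2 difference of −0.34 (SE 0.27, adjusted p = 1.0 by limma). Fxyd2, the gamma subunit of the sodium pump and the most abundant of the 36 transcripts per length, was at 1994 to 2276 FPKM in the LD kidneys, at 2350 to 3265 FPKM in A75, A91 and A94 and at 373 FPKM in A115. Trpm6, the magnesium channel, was at 3.58 ± 0.228 FPKM in the LD condition and 2.97 ± 1.60 FPKM in the ADV condition. Tfap2b, a transcription factor of distal tubule cells, was at 7.06 ± 0.649 and 7.17 ± 0.792 FPKM and was nearly level over the 8 kidneys.

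In the principal cell none of the 3 subunits of the epithelial sodium channel was called, and the alpha subunit was the highest of them in every kidney. Scnn1a, the alpha subunit (chr6:125321340-125344943), was at 27.6, 26.7, 34.8 and 26.8 FPKM in the LD kidneys and at 52.1, 37.0, 33.5 and 6.46 FPKM in A75, A91, A94 and A115. Scnn1b and Scnn1g, the beta and gamma subunits, were at 11.1 ± 1.68 and 10.1 ± 1.24 FPKM in the LD condition and at 10.2 ± 5.64 and 10.04 ± 4.35 FPKM in the ADV condition. In all 3 subunits A75 was the highest of the 8 kidneys and A115 the lowest.

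Genes that set the response to aldosterone overlapped between the conditions. Hsd11b2, the enzyme that removes corticosterone and so leaves the mineralocorticoid receptor to aldosterone, was at 37.3, 39.8, 65.2 and 39.8 FPKM in the LD kidneys and at 48.8, 51.4, 55.8 and 7.60 FPKM in the ADV kidneys. Sgk1, a kinase induced by aldosterone, was at 35.3, 48.9, 65.0 and 68.2 FPKM in the LD kidneys and at 49.96, 46.2, 68.0 and 44.4 FPKM in the ADV kidneys. Its spread was as wide within the LD condition as over all 8 mice. Fxyd4, another regulator of the sodium pump, was at 11.3 to 21.9 FPKM in the LD kidneys, at 22.7, 23.9 and 32.2 FPKM in A75, A91 and A94 and at 2.97 FPKM in A115.

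Avpr2, the vasopressin receptor that switches on water uptake (chrX:73892102-73894428), was at 3.89, 4.72, 7.31 and 6.69 FPKM in the LD kidneys and at 10.3, 9.70, 11.3 and 2.63 FPKM in the ADV kidneys. The log2 difference was 0.43 (SE 0.47, adjusted p = 1.0 by limma). Gata3, a transcription factor of the collecting duct, was at 2.63, 3.27, 4.49 and 3.503 FPKM in the LD kidneys and at 5.36, 5.08, 5.66 and 2.41 FPKM in the ADV kidneys, a log2 difference of 0.36 (SE 0.31, adjusted p = 1.0 by limma). For both genes 3 ADV kidneys lay above every LD kidney and A115 lay below. The claudins of this cell parted in A115. Cldn4 was at 7.74 ± 4.72 FPKM in the LD condition and 12.9 ± 11.2 FPKM in the ADV condition, with 2.88 FPKM in A115, the lowest kidney. Cldn8 was at 30.2 ± 3.98 and 32.7 ± 8.16 FPKM, and A115 was the highest kidney with 44.1 FPKM.

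In the intercalated cell the genes of acid and of base secretion were not called in either direction. Slc4a1, the basolateral chloride-bicarbonate exchanger of acid-secreting cells (chr11:102348820-102365281, minus strand), was nearly level in the LD kidneys at 5.17, 4.71, 5.26 and 5.30 FPKM. It was at 9.52, 8.50 and 8.71 FPKM in A75, A91 and A94 and at 1.16 FPKM in A115, so that the mean log2 difference was 0.08 (SE 0.62). Slc4a1 is also the band 3 gene of red cells. The summed level of 7 red cell markers was 156.9 to 352.1 FPKM in the LD kidneys, 345.1 to 834.9 FPKM in A75, A91 and A94 and 116.1 FPKM in A115, and its part in the Slc4a1 values was not tested.

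Slc26a4, which encodes pendrin, the apical exchanger of base-secreting cells, was at 18.3, 14.98, 15.6 and 14.6 FPKM in the LD kidneys and at 8.60, 20.1, 13.3 and 7.52 FPKM in the ADV kidneys. Its log2 difference was −0.46 (SE 0.30, adjusted p = 1.0 by limma), and A91 was the highest of the 8. Atp6v1g3, a proton pump subunit of these cells, was at 13.0, 15.3, 15.6 and 15.9 FPKM in the LD kidneys and at 21.0, 16.02, 14.3 and 19.0 FPKM in the ADV kidneys, a log2 difference of 0.22 (SE 0.16, adjusted p = 1.0 by limma).

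The other pump subunits parted in A115. Atp6v1b1 was at 36.05 ± 3.32 FPKM in the LD condition and 31.3 ± 10.8 FPKM in the ADV condition, with 15.3 FPKM in A115. Atp6v0d2 was at 12.1, 12.2 and 12.3 FPKM in A75, A91 and A94, just below the lowest LD kidney at 12.7 FPKM, and at 19.7 FPKM in A115. Foxi1, the transcription factor that specifies intercalated cells, was at 7.83 ± 1.03 and 6.57 ± 2.29 FPKM, with 3.22 FPKM in A115. Slc26a7, another anion exchanger, was at 0.455 ± 0.168 and 0.462 ± 0.181 FPKM, the lowest of the 36 genes.

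Over the 36 genes, A115 was the lowest of the 8 kidneys in 25. Against the LD mean its median log2 difference over the 36 genes was −1.10, where that of all genes was −0.48. Most lists of other genes had a negative median in A115, with −1.24 over 13 proximal tubule, −1.01 over 7 podocyte, −0.64 over 8 inner medulla and thin limb and −2.26 over 6 urothelium markers. The further genes of the same segments, counted later, had medians of −0.61 (thick limb), −0.17 (distal convoluted and connecting tubule), −0.97 (principal cell) and −1.75 (intercalated cell). The median was −0.21 over 8 immune cell, −0.47 over 7 red cell and −0.14 over 8 hepatocyte markers, and over the 7 tubule injury markers it was 1.34. By segment the median was −0.70 in the thick ascending limb, −1.58 in the distal convoluted tubule, −1.17 in the principal cell and −1.06 in the intercalated cell. In each segment at least 1 gene was nonetheless highest in A115, namely Cldn10, Stk39 and Tfap2b, Cldn8 and Atp6v0d2.

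The size of the difference in A115 went with the GC share of the transcript. Over the 36 genes Pearson's r was −0.83 and Spearman's rho −0.85, and over the 13910 genes tested that have a GC value rho was −0.72. For the mean of A75, A91 and A94 rho was 0.70 over the 36 genes and 0.65 over all genes, with the opposite sign. The points share their libraries and the same 4 LD kidneys, and the values are descriptions. In the 11 genes with a GC share of 54% or more, the median was −2.07 in A115 with all 11 below the LD mean, and 0.48 in the other ADV kidneys with all 11 above it. Over all genes of that GC range the medians were −1.65 and 0.57. In the 7 genes under 46% the medians were 0.28 and −0.06, and over all such genes 0.32 and −0.12.

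Not every gene followed its GC share. Pvalb and Stk39 have 49.9% and 49.2% GC, but their log2 difference from the LD mean was −2.65 and 0.33 in A115. In the 13 genes between 46% and 50% GC the median in A115 was −0.70, while that of all genes in this range was −0.19. The relation with GC over all genes was weaker in the other organ, where Spearman's rho lay between −0.29 and 0.16 over the 8 livers, and in the LD kidneys, where each library set against the other 3 gave −0.37 to 0.26. Whether the GC relation comes from library preparation, sequencing or the tissue was not tested.

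**Figure D2:**
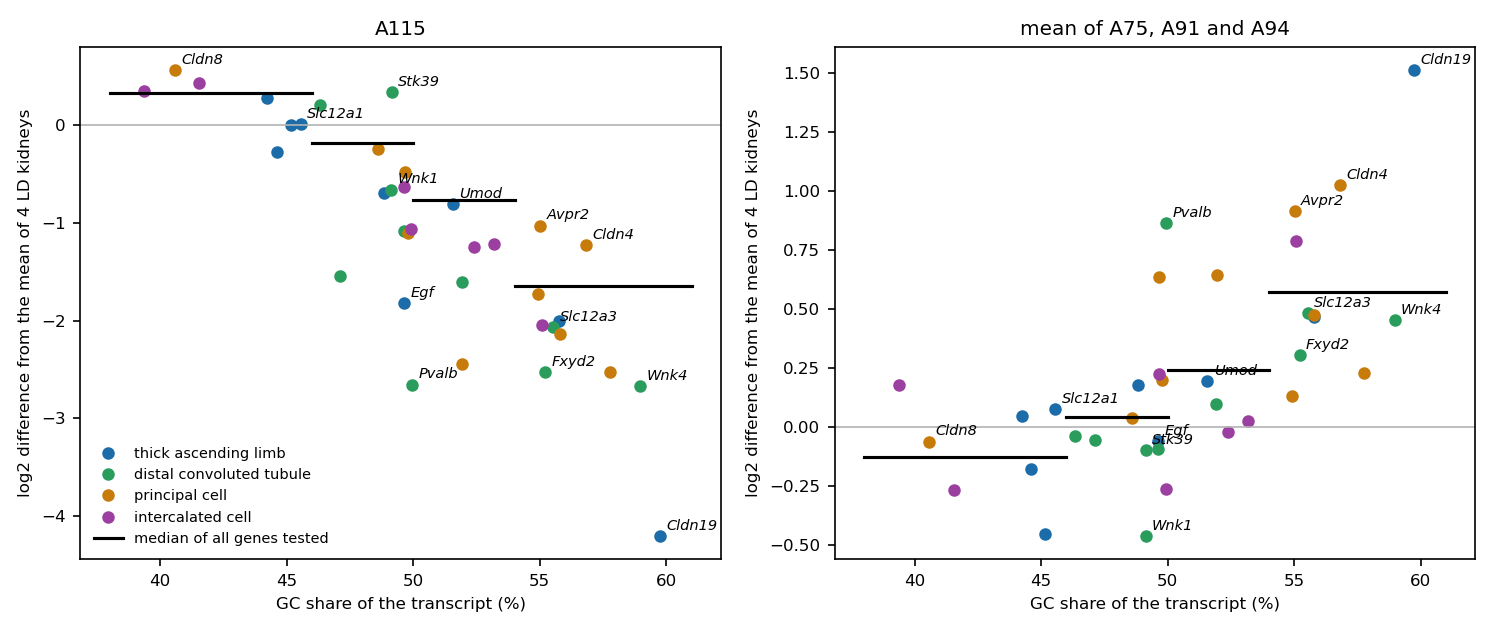
Log2 difference of each of the 36 genes from the mean of the 4 LD kidneys (vertical axis) against the GC share of its transcript (horizontal axis, %), for A115 (left) and for the mean of A75, A91 and A94 (right), which have different vertical scales. Colours are the segments and black bars the median of all genes tested in 4 ranges of GC. The points fall with GC in A115 (rho −0.85) and rise with it in the other ADV kidneys (rho 0.70).

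Without A115, 7 of the 36 genes were higher and 1 was lower in the ADV condition at an adjusted p under 0.05 by limma. Of all 14475 genes tested, 16.1% were higher and 2.68% lower, so that the share of called genes among the 36 was close to that of the background, and the median log2 difference of all genes was 0.20 against 0.16 for the 36 genes. The 7 higher genes were Cldn19 (1.51, SE 0.22, adjusted p = 0.011), Avpr2 (0.91, adjusted p = 0.025), Pvalb (0.87, adjusted p = 0.019), Slc4a1 (0.79, adjusted p = 0.011), Gata3 (0.64, adjusted p = 0.040), Bsnd (0.47, adjusted p = 0.039) and Wnk4 (0.46, adjusted p = 0.028). The lower gene was Wnk1 (−0.46, SE 0.14, adjusted p = 0.048). At least 1 gene of each segment was among them. Slc12a3 and Scnn1a, at 0.48 each, missed the threshold (adjusted p = 0.058 and 0.075). Kcnj1 was at −0.18, Tmem52b at −0.45, Kcnj10 at −0.09, Slc26a4 at −0.26, Atp6v1g3 at 0.18 and Egf at −0.06, none of them called.

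Without A115, 10 genes had every ADV kidney above every LD kidney, where 24.8% of all genes did. They were the 7 higher genes named above and Slc12a3, Fxyd2 and Fxyd4. Every ADV kidney was below every LD kidney in 2 genes, Wnk1 and Atp6v0d2, against 8.04% of all genes.

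Fewer genes were called under other normalizations. Under median ratio scaling, again without A115, 4 genes were higher, Cldn19, Slc4a1, Avpr2 and Pvalb, and 2 were lower, Wnk1 and Tmem52b, where 8.31% of all genes were higher and 7.7% lower. Of the 7 higher genes Gata3, Bsnd and Wnk4 were no longer called. With the GC trend of each library removed and without A115, none of the 36 genes passed the adjusted threshold and neither did any other gene (0% of 13929). At an unadjusted p under 0.05, 5 of the 36 genes were then higher and 4 lower, where 18.5% of all genes passed in either direction. The log2 difference was 0.83 (SE 0.16) for Cldn19, 0.75 (SE 0.18) for Pvalb, 0.53 for Gata3, 0.50 for Avpr2 and 0.37 for Slc4a1, each smaller than without this step. Wnk1 was at −0.54 (SE 0.14), Tmem52b at −0.40, Atp6v1b1 at −0.28 and Foxi1 at −0.28. In the same fit the log2 difference was −0.19 for Wnk4 and 0.0059 for Bsnd. With all 8 kidneys and the GC trend removed, no gene was called either. At an unadjusted p under 0.05 by limma, Avpr2 was then higher and Wnk1, Hsd11b2, Foxi1 and Atp6v1b1 were lower. Of the 13910 genes tested in that fit, 574 were higher and 484 lower at that level.

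**Figure D3:**
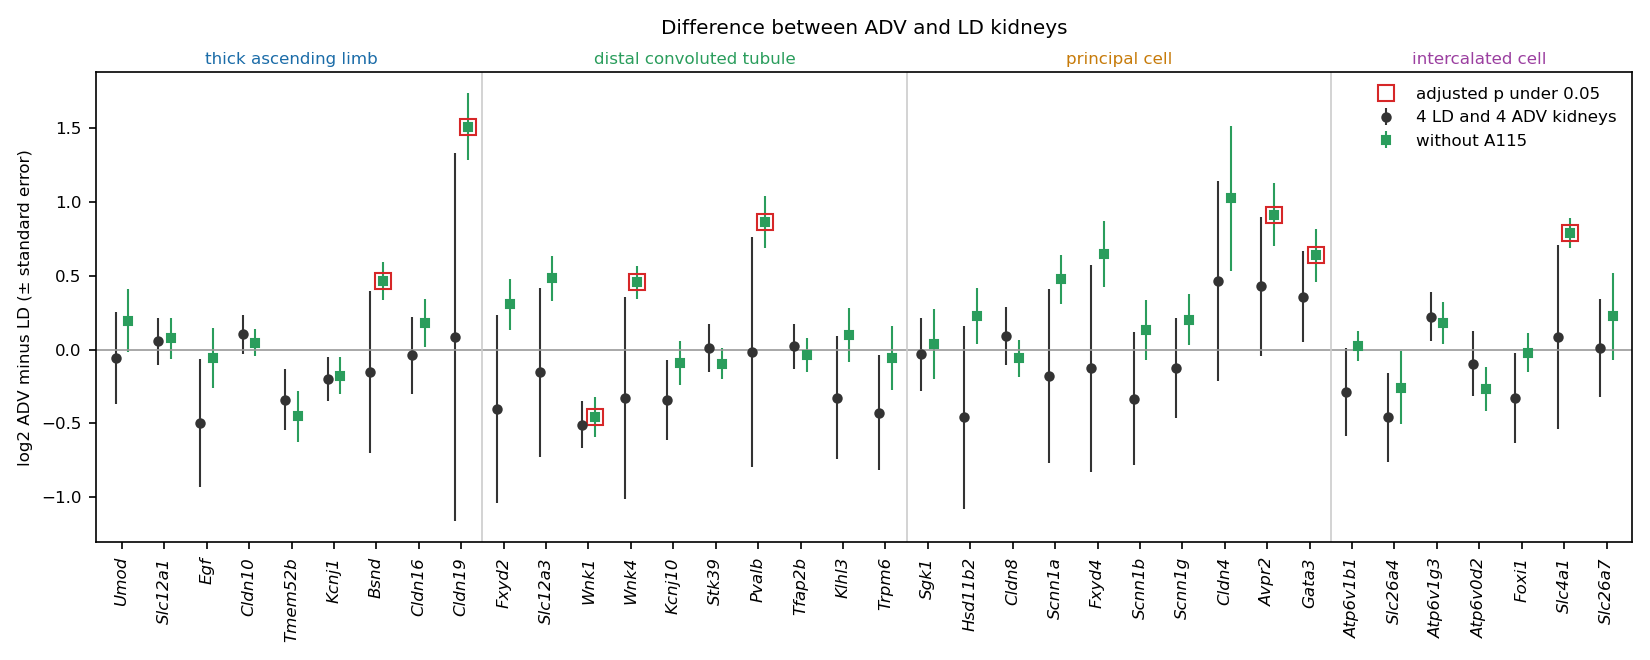
Log2 difference between ADV and LD kidneys on the log2(FPKM + 0.1) scale with its standard error, for all 8 kidneys (circles) and without A115 (squares). Frames mark the 7 genes higher and 1 gene lower without A115 at an adjusted p under 0.05 by limma, and no gene was called with all 8 kidneys.

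Other genes known from the same segments were counted in the same fits. With all 8 kidneys none was called among 10 more thick limb genes, 12 of the distal convoluted and connecting tubule, 15 of the principal cell and the aldosterone response and 12 of the intercalated cell, with median log2 differences of −0.08, −0.04, −0.15 and −0.39. Oxgr1, a receptor of base-secreting cells, was the only one of them at an unadjusted p under 0.05 (log2 difference −0.50, adjusted p = 1.0 by limma). Without A115 there were 2, 2, 4 and 1 genes higher and 0, 1, 0 and 0 lower, in a fit where 16.1% of all genes were higher and 2.68% lower. Among the higher genes was Aqp2, the water channel of the principal cell that acts below Avpr2, at 1.36 (adjusted p = 0.037), chosen after its values were seen. Aqp2 was at 35.7, 48.7, 84.4 and 94.7 FPKM in the LD kidneys, at 104.4, 187 and 200 FPKM in A75, A91 and A94 and at 1.81 FPKM in A115. The lower gene was Cul3, the ligase that works with Klhl3, at −0.51 (adjusted p = 0.020). Its transcript holds 38.5% GC and that of Aqp2 63.2%.

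Markers of other cells also differed between the mice. The summed level of 8 immune cell markers was 148.3 to 395.2 FPKM in the LD kidneys and 110.8 to 1435 FPKM in the ADV kidneys, with the highest value in A94. The summed level of 7 tubule injury markers, among them Havcr1 and Lcn2, was 752.5 to 3358 FPKM in the LD kidneys and 719.3 to 8872 FPKM in the ADV kidneys, with the highest values in A115, A75 and L86. The inner medulla and thin limb markers, 8 genes, summed to 174.9 to 259.9 FPKM in the LD kidneys, 265.2 to 338.3 FPKM in A75, A91 and A94 and 130.6 FPKM in A115, and the 6 urothelium markers to 9.10 to 14.3, 12.4 to 20.4 and 5.81 FPKM. The 7 podocyte markers summed to 72.2 to 79.1, 80.02 to 89.5 and 52.4 FPKM, so that in the inner medulla and podocyte lists, as in Cldn19 or Slc4a1, 3 ADV kidneys lay above every LD kidney and A115 below. The 13 proximal tubule markers summed to 31915 to 45644 FPKM in the LD kidneys, 22583 to 35500 FPKM in A75, A91 and A94 and 48566 FPKM in A115. This sum was highest in A115 although 11 of the 13 markers were below every LD kidney there and 2 above, with the median of −1.24 given above. No marker of these 6 lists was at 0 in all kidneys. How deep into the medulla each piece of kidney reached is not given in the sources used here, and the part of these markers in the values above was not tested.

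In the liver, which has no nephron, 9 of the 36 genes were above the minimum, and none of them was called by limma, where 0.00779% of the 12835 genes tested were. The 9 genes were Wnk1, Wnk4, Stk39, Klhl3, Kcnj10, Scnn1a, Sgk1, Slc26a4 and Atp6v0d2, of which 5 belong to the distal convoluted tubule list and none to the thick limb list. At an unadjusted p under 0.05 there were 3, all higher in the ADV condition, where 8.65% of all genes were higher. Stk39 was at 0.639, 0.559, 0.542 and 0.550 FPKM in the LD livers and at 0.781, 0.830, 1.47 and 0.828 FPKM in the ADV livers, a log2 difference of 0.64 (SE 0.22, adjusted p = 0.36 by limma). Kcnj10 was at 0.218 to 0.263 FPKM in the LD livers and at 0.364, 0.320, 0.761 and 0.327 FPKM in the ADV livers, a log2 difference of 0.63 (SE 0.27, adjusted p = 0.41 by limma). In these 2 genes every ADV liver was above every LD liver, which held for 6.94% of all genes, and A94 was the highest. The liver of A94 stood apart, with a mean correlation of 0.941 with the other livers, where these lay between 0.977 and 0.982, and with 8 immune cell markers summed to 549.9 FPKM against 47.7 to 79.5 FPKM in the other livers. Without A94 the log2 difference was 0.44 for Stk39 and 0.38 for Kcnj10, and the part of the immune markers was not tested. For every ADV liver below every LD liver there was no gene, against 1.89% of all genes.

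Sgk1 was at 3.71, 4.23, 5.59 and 5.56 FPKM in the LD livers and at 7.23, 5.13, 6.16 and 7.12 FPKM in the ADV livers, a log2 difference of 0.43 (SE 0.17, adjusted p = 0.39 by limma), with overlapping ranges. Wnk1, the gene with separate ranges in the kidney, was at 7.53 ± 1.17 FPKM in the LD livers and 8.54 ± 1.99 FPKM in the ADV livers (SD, n = 4 each). Scnn1a was at 4.72 ± 0.295 and 4.29 ± 1.30 FPKM, Klhl3 at 1.13 ± 0.322 and 0.936 ± 0.145 FPKM and Wnk4 at 0.443 ± 0.123 and 0.364 ± 0.173 FPKM. Slc26a4 was at 0.102 ± 0.0484 and 0.226 ± 0.143 FPKM, a log2 difference of 0.63 (SE 0.33, adjusted p = 0.47 by limma). Atp6v0d2, a subunit also made by macrophages, was at 2.18 ± 1.02 and 1.77 ± 1.40 FPKM.

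Between the organs all 36 genes were higher in the kidney at an adjusted p under 0.05 by limma, where 61.9% of the 14968 genes tested were higher and 13.2% lower there. With median ratio scaling the 36 genes were again called, while 34.6% of all genes were higher and 31% lower. Since the list names kidney genes and 27 of them passed the minimum through the kidney only, the direction was fixed by the choice of the list, and the count serves as a check of the tables. It was the same with the mouse as a replicate block. The median ratio of the kidney mean to the liver mean was 740-fold for the 36 genes and 1.81-fold for all genes, with a liver mean under 3 fragments over the 8 livers set to that floor. These ratios are of FPKM as deposited. In the fits the median log2 difference between the organs was 6.26 for the 36 genes and 0.75 for all genes, and with median ratio scaling 5.86 and 0.03. In 12 genes no fragment was found in any of the 8 livers, namely Slc12a1, Bsnd, Cldn16, Cldn19, Tmem52b, Tfap2b, Scnn1b, Scnn1g, Avpr2, Fxyd4, Atp6v1b1 and Foxi1. Slc12a1 was at least 82945-fold higher in the kidney (280 ± 32.0 FPKM over 8 kidneys). The alpha subunit Scnn1a, by contrast, was 6.80-fold higher, at 30.6 ± 12.8 FPKM in the kidneys and 4.50 ± 0.900 FPKM in the livers, while the beta and gamma subunits were listed at 0 in the livers. The smallest ratios were 3.88-fold for Klhl3 and 5.09-fold for Wnk1. In 35 of the 36 genes every kidney lay above every liver, as in 34.9% of all genes, and the exception was Klhl3, with 1.31 FPKM in the kidney of A115 and 1.49 FPKM in the highest liver.

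**Figure D4:**
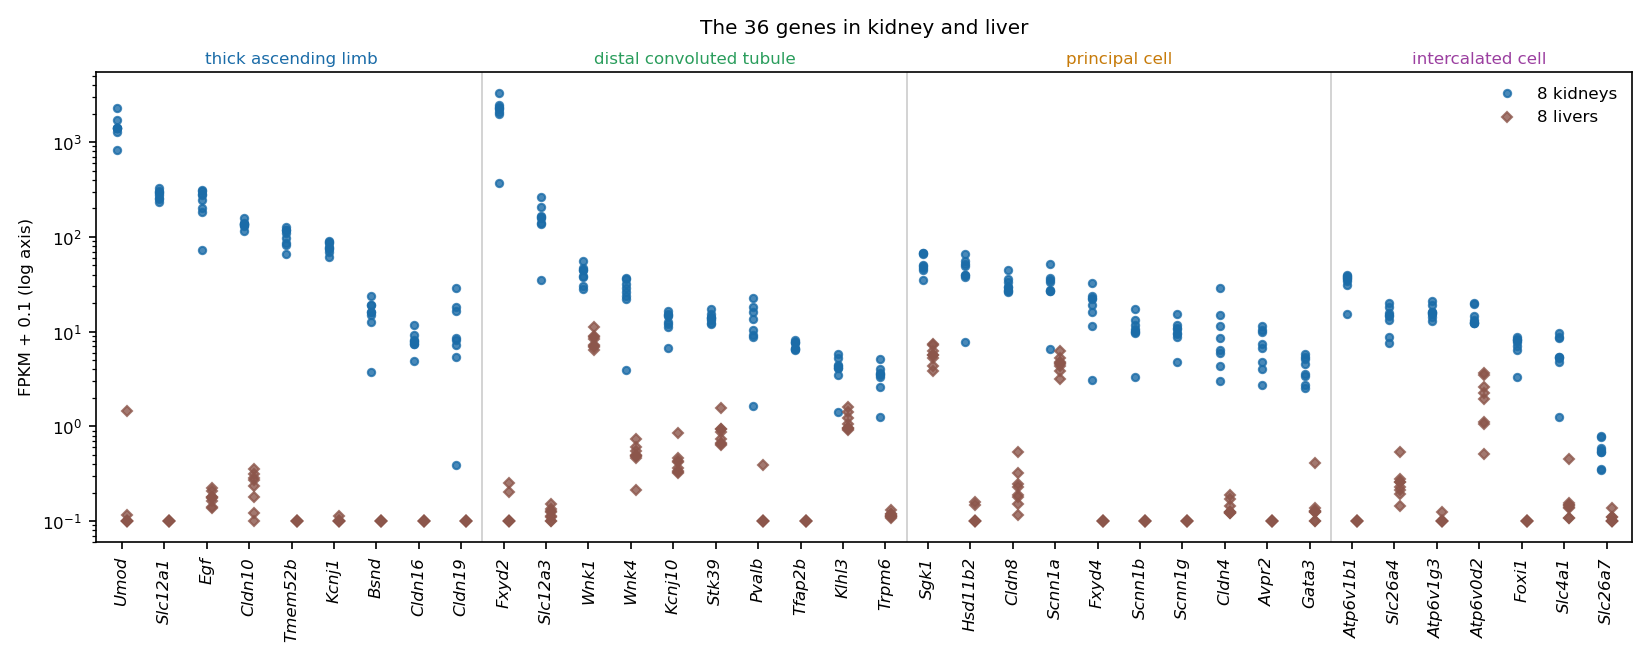
FPKM + 0.1 (log axis) of the 36 genes in the 8 kidneys (circles) and the 8 livers (diamonds), in the order of the plot of kidney levels. A value of 0.1 means that no fragment was found, which held in all 8 livers for 12 genes.

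The difference between ADV and LD was also compared between the organs in 1 fit. With all 16 libraries no gene of the 36 differed at an adjusted p under 0.05 by limma, and 0% of all genes did. At an unadjusted p under 0.05 the effect was lower in the kidney than in the liver for 5 genes, Slc26a4 (−1.09, SE 0.45), Kcnj10 (−0.97, SE 0.38), Cldn8 (−0.91, SE 0.37), Wnk1 (−0.68, SE 0.24) and Stk39 (−0.63, SE 0.26), where 3.01% of all genes were lower. Cldn8 was below the minimum in the liver, at 0.0173 to 0.435 FPKM, so that its value rests on levels near the 0.1 added before the log. Slc26a4 passed the minimum but had nearly the same liver range, at 0.0435 to 0.438 FPKM, and its value rests on such levels too. Without A115, Cldn19 (1.51) was called (adjusted p = 0.026 by limma), as were 2.74% of all genes. At an unadjusted p under 0.05, Wnk4 (0.92), Avpr2 (0.91), Scnn1a (0.83), Fxyd4 (0.65) and Bsnd (0.47) were also higher. Cldn8 (−1.06), Kcnj10 (−0.81), Stk39 (−0.79) and Wnk1 (−0.60) were lower, and Slc26a4 (−0.94) no longer passed. Of the 14975 genes tested, 2080 were higher and 1110 lower at that level. For the 12 genes without a fragment in any liver the comparison holds nothing beyond the kidney difference.

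Since the study is about the circadian clock, the promoters of the 36 genes were searched on both strands for the E-box CACGTG, the element bound by the CLOCK and BMAL1 pair, and for AGAACA, the core of the element bound by steroid receptors. RefSeq windows from 250 bases before to 50 bases after the start (GRCm38.p6) were at hand for 28 of the 36 genes. The E-box was found in 1 of them, Sgk1, or 3.57%, against 8.09% of all genes, and AGAACA in 8, or 28.6%, against 21.3% of all genes.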

How the data were processed

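RNA of liver and kidney from 8 mice was sequenced by the authors as poly(A)-selected, stranded paired-end libraries, 1 per organ and mouse. The authors trimmed adaptors with Trimmomatic, mapped reads to GRCm38/mm10 with STAR 2.5.4b, removed reads with a mapping quality under 10 and counted them over the exons of the UCSC canonical genes in Homer. Values deposited by the authors are FPKM, which the column names call RPKM. All values came out as multiples of 0.5 fragment, so that depth and fragments could be recovered. No read was counted again.

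Genes with a mean above 0.5 RPM (FPKM times exon length) in the organ, the expression rule of the study, were tested on log2(FPKM + 0.1) with limma 3.58.1 in R 4.3.3 (lmFit, eBayes with a trend), and p was adjusted by Benjamini-Hochberg over all of them. A fold change on this scale understates the change of low genes. Samples entered by their labelled condition, with 1 library per organ from each of the 8 mice. Single genes were also compared by a two-sided exact permutation test over the 70 assignments. The 2 organs of a mouse share its number and come from the same animal, and deviations from the group means correlated over genes with a median of 0.132 for the same mouse (n = 8) and −0.0491 for different mice (n = 24). GC shares were taken from GENCODE vM21 transcripts. The fit was tested on simulated data with independent noise in each gene. These held no GC trend and no single deviating library, so that they do not bear on calls that depend on A115.

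The 36 genes, the lists and the tests were chosen with earlier results of these data known. Full values were given for the 2 genes of each segment with the smallest p, genes whose groups did not overlap, a set of defining genes, and in the liver every gene above the minimum. Alternatives were pseudocounts of 0.5 and 1, no filter, a mean FPKM above 1, median ratio scaling, quantile normalization, rescaling without mitochondrial genes, no trend, limma-voom on recovered fragments, 1 fit for both organs, a replicate block for the mouse, and each mouse left out in turn. Removal of the GC trend of each library by lowess, and leaving out a second mouse beside A115, were added after seeing the data. Some items of the lists are not reported here.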

Additional observations from a re-analysis of the deposited data

Results flagged for a closer look

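Within each condition and organ the lowest and highest mouse was compared with its neighbour, as the gap divided by the range of the 4 mice on the log2(FPKM + 0.1) scale, and a ratio above Dixon's limit for 4 values was taken as a mouse far from the others. Of 90 groups of 4 mice, 17 held such a mouse, where chance gives about 1 in 20. Over all genes tested, 11% of such groups held one. The 90 groups come from 36 genes in the kidney and 9 in the liver, and the 11% from 14452 and 12835 genes. The mix of organs thus differs, and the groups share their libraries and are not independent.

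In 11 genes A115 was far below the other ADV kidneys, with a ratio of 0.945 for Slc4a1, 0.942 for Wnk4, 0.932 for Hsd11b2, 0.895 for Avpr2, 0.872 for Bsnd and for Gata3, 0.871 for Cldn19, 0.869 for Pvalb, 0.857 for Atp6v1b1, 0.853 for Fxyd4 and 0.848 for Fxyd2. In Atp6v0d2 A115 was far above them (0.975). Over all genes A115 was far below the other ADV kidneys in 20.8% and far above in 2.02%. The mitochondrial share and the GC relation of this library stand beside the kidney results above, and their part in these values was not tested.

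L86 was far above the other LD kidneys in Scnn1a (0.883) and Hsd11b2 (0.886), which held for 2.15% of all genes, and far above the other LD livers in Wnk4 (0.852), which held for 0.717%. A94 was far above the other ADV livers in Stk39 (0.905) and Kcnj10 (0.863), which held for 6.05% of all genes.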

How the results depend on the processing

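With all mice, no gene of the 36 was called between ADV and LD in kidney or liver under the other pseudocounts, filters, scalings and models, and leaving out 1 mouse gave 0 to 8 calls in the kidney, with all calls coming without A115, and 0 in the liver. Median ratio scaling without A115 gave 6 calls (16.01% of all genes). With a further mouse left out it gave 5 without L86, 4 without L104, 2 without A75 and 7 without A91, where 12.7%, 8.48%, 4.67% and 24.1% of all genes were called, but 0 of all genes without L63, L65 or A94. The cause was not tested. The difference between the organs in the ADV effect gave 0 to 1 calls when 1 mouse was left out and 2 with median ratio scaling without A115, and 0 otherwise. These were Cldn19, which had no fragment in any liver, and under the scaling also Stk39, where 2.74% and 2.78% of all genes were called. With the mouse as a replicate block the count was 36 between the organs and 0 for the ADV effects, and this paired fit changed no other call. Between the organs the count was 36 under the other settings too, except 35 with a mean FPKM above 1, which leaves out Slc26a7. Of the kidney log2 differences, Cldn19 ran from −0.55 to 1.51 and Slc4a1 from −0.19 to 0.79 when 1 mouse was left out. Atp6v1g3 turned to −0.0095 with median ratio scaling without A115, and then to −0.065 without L63, −0.015 without L86, −0.13 without A75 and −0.029 without A91. Depth limits mainly the low values, such as Slc26a7 in the kidney and most of the 36 genes in the liver.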

Other observations

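The liver library of A94 held more transcripts of some of the genes than any other liver. Umod was at 1.33 FPKM there, with 78 of the 79 fragments found over the 8 livers, Pvalb at 0.293 FPKM with all 6 fragments, Gata3 at 0.315 FPKM with 23 of 34 and Slc4a1 at 0.349 FPKM with 36 of 63. Markers of other cells were also highest in this liver, with 7 red cell markers summed to 429.7 FPKM against 212.7 to 299.8 FPKM in the other livers and 8 immune cell markers to 549.9 FPKM against 47.7 to 79.5 FPKM, and their part in these values was not tested. In the same liver Slc12a1, Cldn16, Tmem52b, Scnn1b and Fxyd4 were listed at 0.

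Egf was lowest where the tubule injury markers were highest, in L86, A75 and A115, of which only L86 was an LD kidney. A115 was the lowest of the 8 kidneys in 25 of the 36 genes, so that its low value is not particular to Egf. In L86, A75 and A115 the 7 injury markers lay above the LD mean by a median of 1.70, 2.12 and 1.34 on the log2 scale, and Egf was at 203, 185 and 72.9 FPKM, the lowest 3 of the 8 kidneys. In L63, L65, L104, A91 and A94 the medians were −0.89, −0.35, −0.41, −0.82 and −0.01, and Egf was at 315, 286, 244, 303 and 274 FPKM. Havcr1, the kidney injury molecule, was at 111, 111 and 123 FPKM in L86, A75 and A115 and at 3.07 to 12.6 FPKM in the other 5. The pattern was noticed in these values, which fall into 2 clusters of 3 and 5 kidneys, and no correlation or test is given.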
